A study of Homo sapiens with 2 samples.

Results

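The genes described here encode the proteins of the spliceosome's small nuclear ribonucleoproteins (snRNPs) and the RNA-binding proteins and kinases that steer splice site choice. They were chosen by name: the protein-coding rows whose symbol begins with SNRP, SF3A, SF3B, LSM, PRPF, U2AF, SRSF or HNRNP followed by the members' numbers or letters, and CLK1 to CLK4. This took 94 of the 58735 gene rows: 33 core snRNP genes, 42 regulators (SRSF, HNRNP and CLK), 18 other genes and 1 row placed in none of these. RNA sequencing was done on HM-SUIT-2, a subline of the human pancreatic cancer line SUIT-2 labelled as having highly metastatic potential, with 1 library from untreated cells (labelled NC) and 1 library from cells treated with DHA, which is dihydroartemisinin, an antimalarial endoperoxide. Both groups share the same line and differ only in the treatment label; dose, exposure time and vehicle are not stated in the sources used here. With no replicate in either group no p-value can be given, and all ratios compare these 2 libraries, not the conditions.

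Introns are removed by the spliceosome, which is assembled from the U1, U2, U4, U5 and U6 snRNPs. Most of these RNAs carry a ring of Sm proteins, while U6 carries a ring of LSM proteins; U1 reads the start of an intron, U2 with its SF3A and SF3B proteins binds the branch point, and the tri-snRNP brings in the catalytic RNAs. Around this core, SR proteins (SRSF genes) mostly favour and many hnRNPs (HNRNP genes) often repress the use of nearby splice sites, and CLK kinases phosphorylate SR proteins. SR protein genes are also known for poison exons, whose inclusion sends their own messages to nonsense-mediated decay.

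Counted reads numbered 15452609 without DHA and 14521101 with it. Of the 94 genes, 85 reached 50 reads in 1 library or both and were compared. The HNRNPC-like genes HNRNPCL1, HNRNPCL2, HNRNPCL3 and HNRNPCL4 and the readthrough row HNRNPUL2-BSCL2 had 0 reads in both libraries, where a count of 0 allows up to 3 reads. SNRPN (43 reads untreated and 21 with DHA), SRSF12 (27 and 20), U2AF1L4 (14 and 6) and U2AF1L5 (38 and 16) stayed under the minimum. All 8 epithelial and ductal markers had reads, with a summed level of 3422 CPM (counts scaled to a common library size) untreated and 1422 CPM with DHA. The protocol text of the labels speaks of retina and the submitters' processing notes list a mouse build, but 7 of 10 retinal markers, CRX among them, were at 0 in each library and the rows are human. Marker sums were 8.44 and 0.960 CPM for 6 fibroblast genes (3 at 0, DCN and COL1A2 among them), 1.17 and 0.755 for 5 blood genes (3 at 0, PTPRC among them) and 18.3 and 3.91 for 3 endothelial genes (CDH5 at 0). The fibroblast sum came mostly from COL1A1 (5.39 and 0.755 CPM), followed by PDGFRB (1.69 and 0.137) and LUM (1.36 and 0.0686). Nearly all of the endothelial sum was PECAM1 (18.2 and 3.70 CPM), which stood above the ductal marker MUC1 (9.55 and 1.99).

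The splicing genes as a whole kept close to their untreated levels. Of the 85 genes compared, 0 passed 2-fold upward and 1, SRSF2, was over 2-fold lower with DHA; among all 12064 genes with as many reads, 6.72% were higher and 10.3% lower by the same rule, which also asks that the 95% counting interval of the ratio exclude 1. At a 1.5-fold limit 7 members were higher, against 18.9% of all genes, and 9 were lower, against 19.2%. The log2 ratios of DHA to untreated had an SD of 0.44 over the members and 0.88 over all genes compared. The median size of the log2 ratio, sign ignored, was 0.28 for the members and 0.45 for all genes. That gap stayed when only genes with at least 500 reads were taken, at 0.28 for 70 members and 0.42 for 6551 genes. Within this narrow range the members leaned down: 48 of 85 were below 0, with a median of -0.07 against 0.04 for all genes. Pairs of read counts are given untreated first and DHA second, followed in parentheses by the log2 ratio and its 95% counting interval. In a bulk sample, fewer cells of a type and less RNA per cell cannot be told apart.

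**Figure D1:**
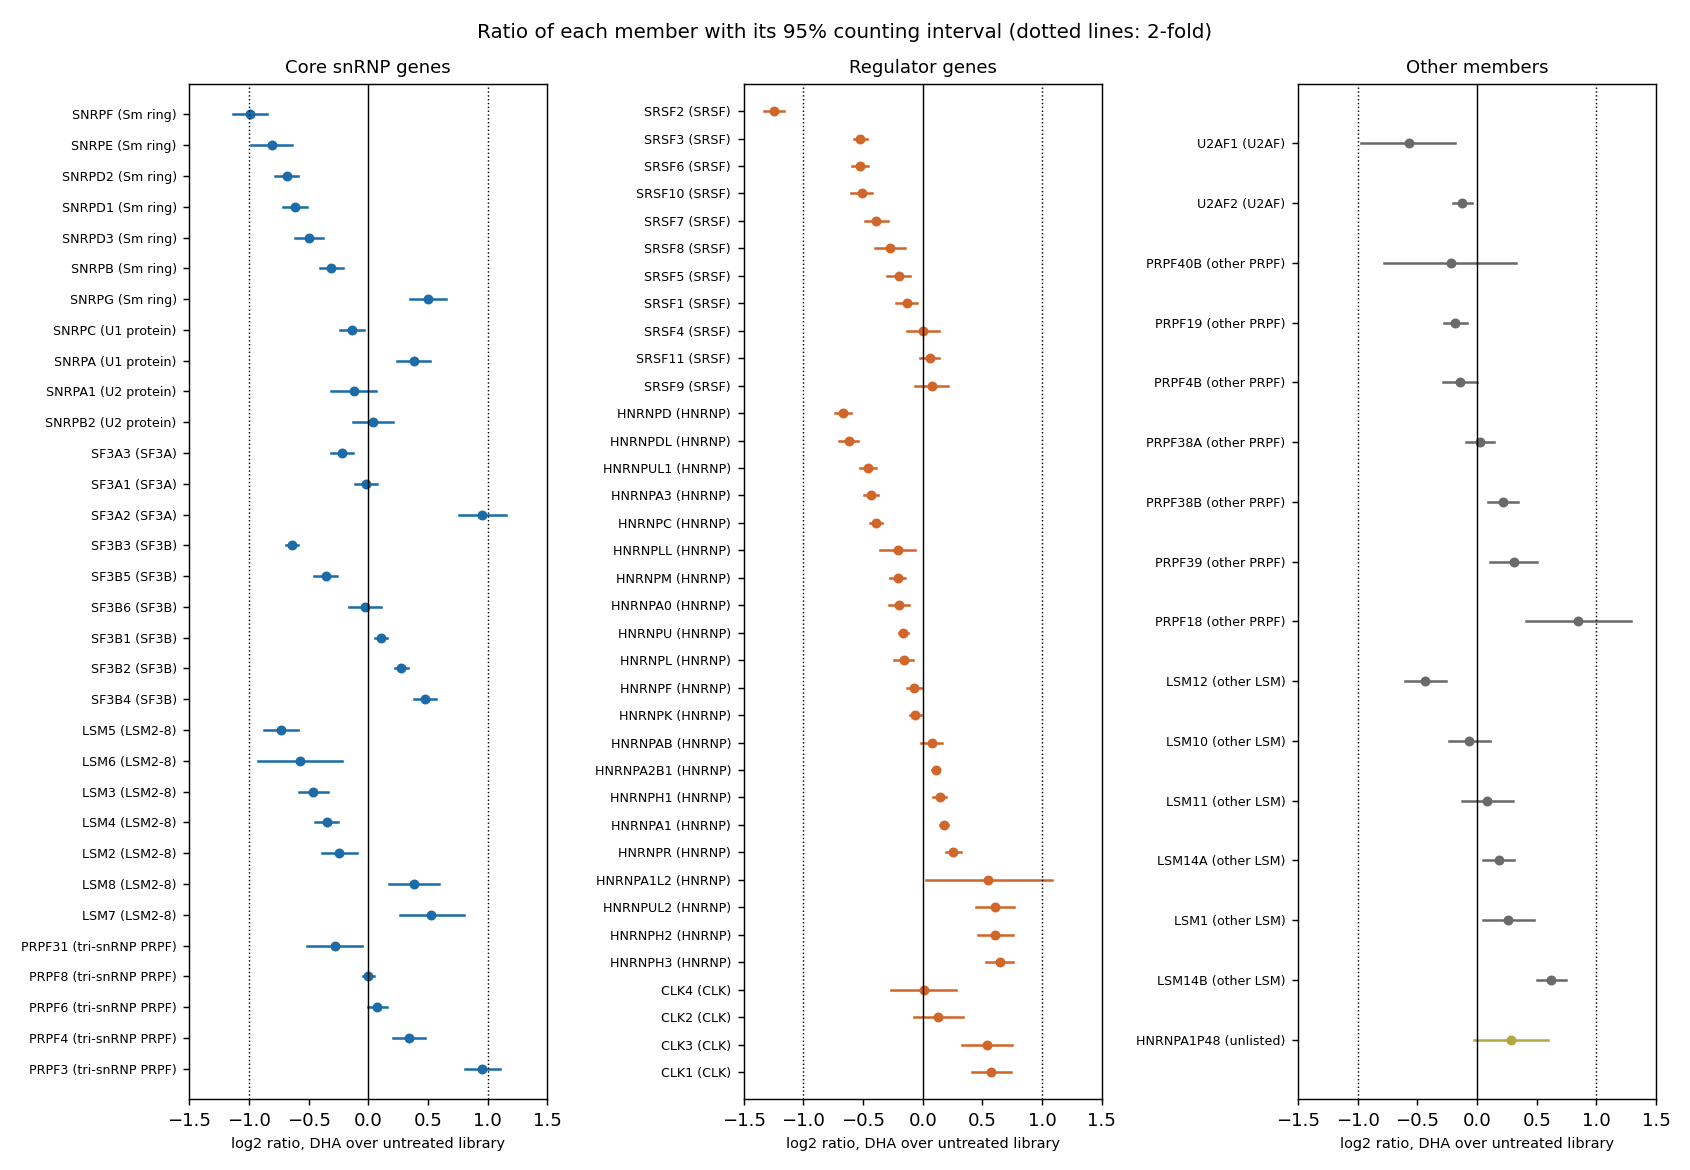
Log2 ratio (horizontal axis) of the DHA to the untreated library for the members compared, grouped by family; points are the ratios, lines their 95% counting intervals, and dotted lines mark 2-fold. SRSF2, at -1.25, is the single member whose point lies beyond a dotted line, and SNRPF, PRPF3 and SF3A2 lie nearest to one inside.

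Core snRNP genes and regulators did not separate. The 32 core genes compared had a median log2 ratio of -0.13, with 20 below and 12 above 0. The 36 regulators (SRSF, HNRNP and CLK) had a median of -0.10, with 20 below and 16 above. The medians differed by 0.03, which is small beside the SD of 0.49 over core genes and 0.42 over regulators. Without members that have over 10% of their 31-base windows in another gene, the difference, regulators minus core, was -0.15. At 1.5-fold, 2 of 32 core genes were higher and 6 lower, and 3 of 36 regulators were higher and 3 lower. Over all genes compared the shares at that limit were 18.9% higher and 19.2% lower. The contrast lay between families within each class: the Sm ring (-0.61), LSM2 to LSM8 (-0.35) and SRSF (-0.28) families had the low medians among core genes and regulators, and CLK (0.33) the high one. Together the 94 genes took 1.37% of all reads untreated and 1.27% with DHA, with the HNRNP genes alone taking 0.666% and 0.636%.

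**Figure D2:**
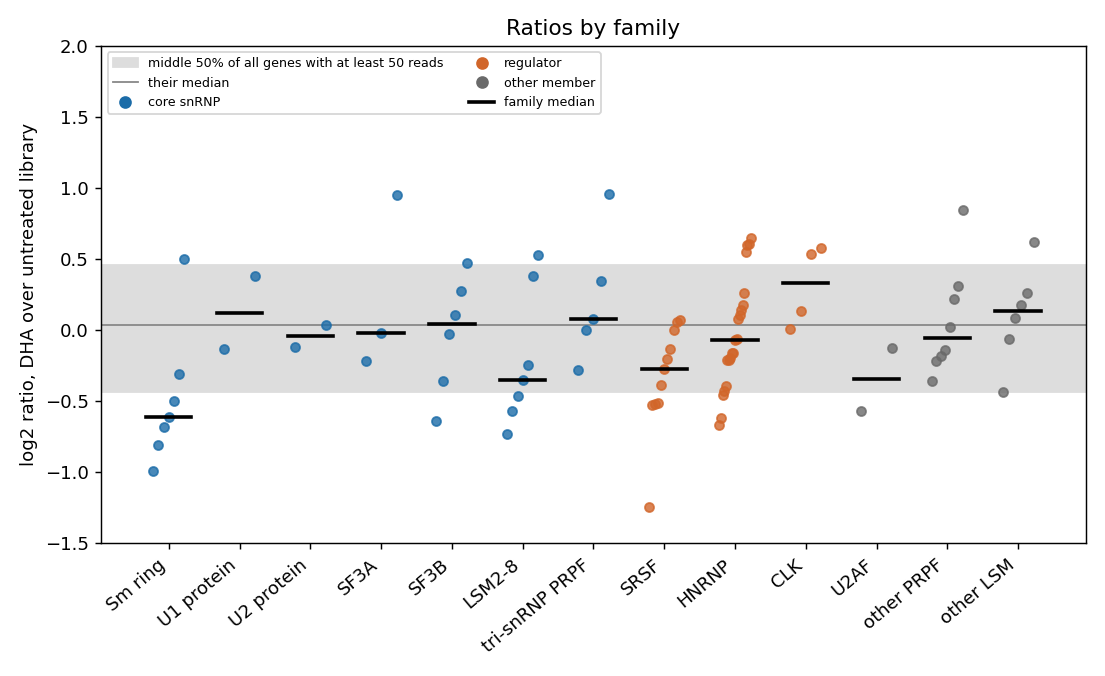
Log2 ratio (vertical axis) of each compared member by family (horizontal axis), with bars at the family medians; the grey band holds the middle 50% of all 12064 genes compared, from -0.43 to 0.46. The Sm ring median of -0.61 lies under the band, and the other family medians lie inside it.

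The 2 classes differed in features that do not come from these counts. Promoters (250 bases before to 50 after a listed start, from RefSeq on GRCh38.p14) were found for 80 of the 94 genes and were searched on both strands for 6 motifs, none of which contains another. The ETS core CCGGAA stood in 18 of 29 core promoters (62.1%) and in 7 of 39 regulator promoters (17.9%), against 31.3% of the 9021 promoters of protein-coding genes with at least 50 reads and 17.6% of all 27305 genes in that table. The E-box CACGTG went the other way, in 1 of 29 core promoters (3.45%) and 9 of 39 regulator promoters (23.1%), against 10.3% and 7.43%. The CCAAT box, CCAAT, stood in 9 of 29 core and 20 of 39 regulator promoters (51.3%, against 37.1% and 35.7% in the same backgrounds). It stood in 17 of 24 HNRNP promoters (70.8%). The regulator and HNRNP counts take in members that were not compared, while the first background holds only genes with at least 50 reads. Among the regulators compared, 17 had the CCAAT box and 17 did not. The GC box GGGCGG stood in 65.5% and 61.5% of the 2 classes, against 72.4% and 44.7%. The cyclic AMP response element TGACGTCA was in 0 promoters of either class (3.33% and 1.96% in the backgrounds), and the ATF4 composite letters TGATGNAA were in 1 core promoter and 0 regulator promoters (1.44% and 3.68%). Core genes with the ETS letters had a median log2 ratio of -0.02 (18 genes) and those without -0.26 (10 genes), while regulators with and without them had -0.07 (7) and -0.13 (27). For the CCAAT box the core medians were -0.28 with (9 genes) and -0.02 without (19), and the regulator medians -0.16 (17) and -0.06 (17). For the E-box they were 0.11 with (1) and -0.12 without (27) in core genes, and -0.21 (9) and -0.07 (25) in regulators. The windows printed here, 5′ to 3′ on the gene's strand, are those of the core genes SNRPF and SNRPD2, which were low in the DHA library, of the core gene SF3A2, which was high, and of the regulators HNRNPD (low) and CLK1 (among the high). Capitals mark every match to these motifs on either strand; a match is letters only, not a bound site. Where RefSeq lists several starts, the one nearest the gene's GENCODE 29 end was used; in these 5 genes it lies 24 to 512 bases inside the gene.
SNRPF, chr12:95858702-95859001, plus strand: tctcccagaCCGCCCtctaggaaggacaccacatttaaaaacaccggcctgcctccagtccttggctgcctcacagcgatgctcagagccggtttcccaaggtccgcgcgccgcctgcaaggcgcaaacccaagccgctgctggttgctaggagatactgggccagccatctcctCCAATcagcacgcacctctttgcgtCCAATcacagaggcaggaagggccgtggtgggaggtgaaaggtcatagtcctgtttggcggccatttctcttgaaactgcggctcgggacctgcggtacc
SNRPD2, chr19:45692267-45692566, minus strand: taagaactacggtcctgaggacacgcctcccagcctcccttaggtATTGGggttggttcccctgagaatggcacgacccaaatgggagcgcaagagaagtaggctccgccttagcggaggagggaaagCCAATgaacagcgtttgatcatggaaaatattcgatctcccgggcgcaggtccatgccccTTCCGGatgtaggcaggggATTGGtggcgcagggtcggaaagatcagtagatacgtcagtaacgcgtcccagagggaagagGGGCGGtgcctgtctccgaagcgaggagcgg
SF3A2, chr19:2236574-2236873, plus strand: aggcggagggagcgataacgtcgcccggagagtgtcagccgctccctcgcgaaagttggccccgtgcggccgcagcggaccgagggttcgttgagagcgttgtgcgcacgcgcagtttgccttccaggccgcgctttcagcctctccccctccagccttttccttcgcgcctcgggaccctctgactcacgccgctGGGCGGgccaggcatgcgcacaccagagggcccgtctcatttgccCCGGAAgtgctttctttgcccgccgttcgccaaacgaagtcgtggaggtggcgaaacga
HNRNPD, chr4:82373942-82374241, minus strand: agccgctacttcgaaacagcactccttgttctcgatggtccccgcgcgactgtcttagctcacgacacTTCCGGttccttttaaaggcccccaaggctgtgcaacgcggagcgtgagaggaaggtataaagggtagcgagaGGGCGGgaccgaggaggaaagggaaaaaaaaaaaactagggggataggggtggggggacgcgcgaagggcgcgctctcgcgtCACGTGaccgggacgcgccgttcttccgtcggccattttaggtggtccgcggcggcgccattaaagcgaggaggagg
CLK1, chr2:200864609-200864908, minus strand: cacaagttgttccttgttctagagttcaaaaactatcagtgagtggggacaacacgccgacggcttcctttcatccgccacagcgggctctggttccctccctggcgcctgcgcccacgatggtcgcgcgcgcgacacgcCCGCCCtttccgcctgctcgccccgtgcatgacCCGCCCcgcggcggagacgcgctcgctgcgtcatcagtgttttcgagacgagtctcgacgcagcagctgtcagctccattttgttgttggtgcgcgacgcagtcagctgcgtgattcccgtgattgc
SNRPF holds 2 CCAAT boxes and a GC box, and SNRPD2 holds 3 CCAAT boxes, an ETS core and a GC box. SF3A2 holds an ETS core and a GC box. HNRNPD holds an E-box, an ETS core and a GC box, and CLK1 holds 2 GC boxes. The low and the high core genes printed thus share GC box letters.

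The Sm ring was the family with the lowest median. SNRPB, SNRPD1, SNRPD2, SNRPD3, SNRPE, SNRPF and SNRPG encode its 7 proteins, which close around the Sm site of U1, U2, U4 and U5 RNA; SNRPN encodes a tissue-restricted relative of SNRPB. SNRPF (ENSG00000139343, on chr12:95858928-95903828) had 1243 reads untreated and 593 with DHA, a log2 ratio of -0.99 (95% counting interval -1.13 to -0.85), and it passed 2-fold, at -1.03 and -1.05, under DESeq2 size factors and upper-quartile scaling. SNRPE, which partners SNRPF in the ring, had 802 and 434 reads, a log2 ratio of -0.81 (-0.98 to -0.64). SNRPD2 had 2374 and 1401 reads (-0.68, -0.78 to -0.59) and its partner SNRPD1 2127 and 1318 (-0.61, -0.71 to -0.51). These 4 genes, of 7 compared, passed the 1.5-fold limit, each lower in the DHA library and with an interval clear of 0. Of all genes compared, 19.2% were lower at that limit. SNRPD3 had 1428 and 958 reads (-0.50, -0.62 to -0.38), and SNRPB, the C-terminally extended member, had 1904 and 1455 (-0.31, -0.41 to -0.21). Both were lower with intervals clear of 0, inside the 1.5-fold limit. The 8 Sm genes together went from 10533 reads, 0.0682% of the library (95% Wilson interval 0.0669 to 0.0695), to 7000, 0.0482% (0.0471 to 0.0493).

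SNRPG was the exception in the ring, and its reads cannot be cleanly assigned. The SNRPG row had 612 reads untreated and 820 with DHA, a log2 ratio of 0.50 (0.35 to 0.65). GENCODE 29 lists 20 pseudogene copies of it, 8 of which had reads, and together these went the other way, from 242 to 47 reads (-2.27, -2.77 to -1.83). The leading copy was SNRPGP10, with 150 and 15 reads, followed by SNRPGP15 with 65 and 22 and SNRPGP2 with 24 and 3. Of the 31-base windows in these 3 copies, 53.8%, 48.4% and 43.9% also occur in SNRPG. Of the windows in SNRPG itself, 10.03% occur in other genes. That share was larger in SNRPB (18.2%), SNRPD1 (15.9%), SNRPE (14.7%) and SNRPD3 (14.5%), and smaller in SNRPF (5.21%) and SNRPD2 (3.67%). Gene and copies together had 854 and 867 reads, a log2 ratio of 0.10 with an interval of -0.04 to 0.24 that includes 0. How reads that match several places were counted is not stated in the sources used here, and the part of that division of reads in the SNRPG ratio was not tested. With the copies added, SNRPG was no longer higher than its counting error, and it still stood above the other 6 ring genes compared. For SNRPE, 9 copies held 34 and 41 reads, and the sum with the gene kept a log2 ratio of -0.74.

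**Figure D3:**
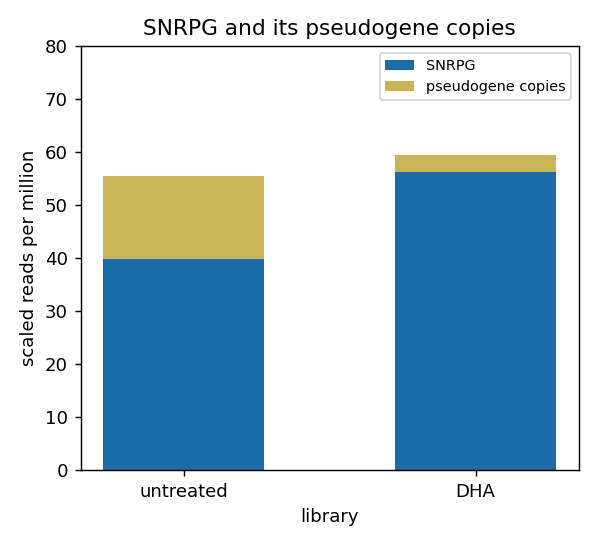
Scaled reads (CPM, vertical axis) of SNRPG and its pseudogene copies, stacked, in the untreated and DHA libraries. The SNRPG part grows from 612 to 820 reads and the copies shrink from 242 to 47, so that the stacks end close together.

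The LSM2 to LSM8 genes encode the ring that sits on the 3′ end of U6 RNA, a parallel to the Sm ring. Their median log2 ratio was -0.35, with 5 of 7 below 0. LSM5 had 1098 reads untreated and 626 with DHA (-0.73, -0.88 to -0.59) and was the single gene of these 7 past 1.5-fold. Among all genes compared, 18.9% were higher and 19.2% lower at that limit. LSM6 had 176 and 112 reads (-0.57, -0.93 to -0.22), LSM3 1348 and 927 (-0.46, -0.58 to -0.34), LSM4 2078 and 1545 (-0.35, -0.45 to -0.25) and LSM2 861 and 689 (-0.24, -0.39 to -0.10). All 5 intervals lay below 0. LSM7 (202 and 276 reads, 0.53, 0.26 to 0.80) and LSM8 (340 and 420, 0.38, 0.17 to 0.59) were above 0, LSM8 being the subunit that sets the nuclear ring apart from the cytoplasmic LSM1 to LSM7 ring. Each ring thus held genes on both sides of 0, and in the Sm ring the 1 gene above 0 was SNRPG. Part of the SNRPG sequence is shared with its copies, but shared sequence was not particular to SNRPG in that ring.

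**Figure D4:**
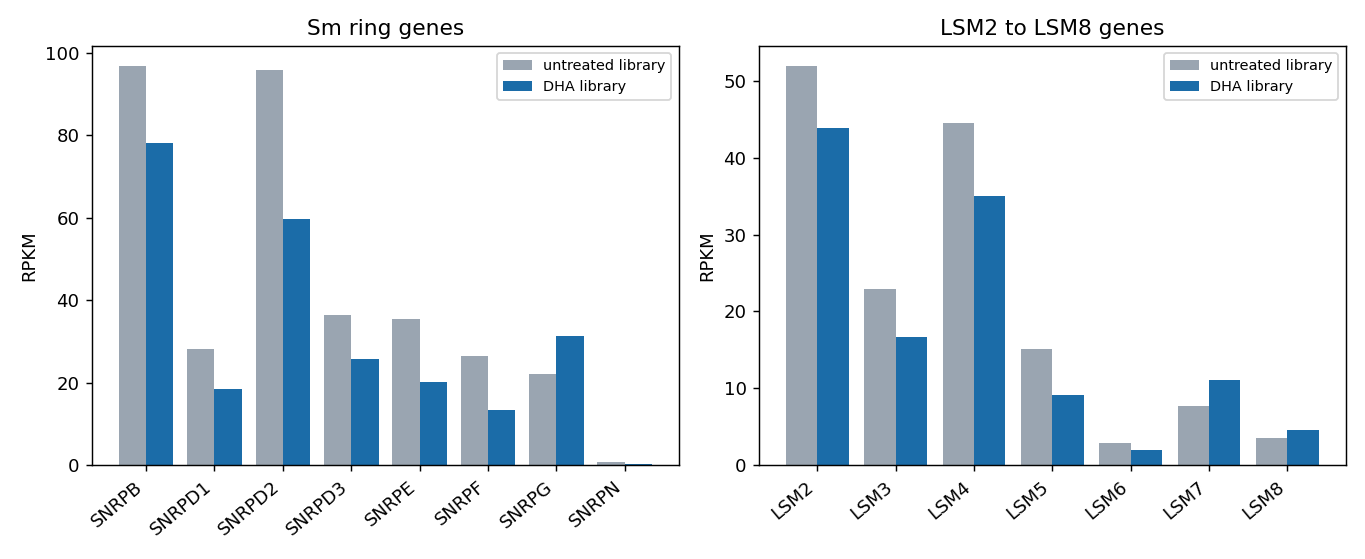
Level per gene length in RPKM (scaled reads per length and library size, vertical axis) of the Sm ring genes (left panel) and the LSM2 to LSM8 genes (right panel) in the untreated library (grey bars) and the DHA library (blue bars), 1 library each. SNRPB and SNRPD2 are the most abundant Sm genes, at 96.8 and 95.9 RPKM untreated and 78.1 and 59.8 with DHA, and SNRPN is under 1 RPKM in both.

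The SNRP genes of U1 and U2 outside the Sm ring stayed inside 1.5-fold. SNRPA, an RNA-binding protein of U1, had 752 and 926 reads (0.38, 0.24 to 0.52), and SNRPC, which helps U1 hold the 5′ splice site, had 1774 and 1531 (-0.13, -0.23 to -0.03). The U2 proteins SNRPA1 (500 and 435 reads, -0.12, -0.31 to 0.07) and SNRPB2 (592 and 575, 0.04, -0.13 to 0.21) had intervals that include 0.

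SF3A2 and PRPF3 were the core genes with the highest ratios. SF3A2, a subunit of the SF3A complex of U2, had 323 reads untreated and 593 with DHA, which is 1.94-fold higher (1.69 to 2.23); its log2 ratio was 1.03 with a length and GC trend removed. Its complex partners did not share this: SF3A1 had 2047 and 1909 reads (log2 ratio -0.02, -0.11 to 0.07) and SF3A3 2143 and 1745 (-0.22, -0.31 to -0.13). SF3A2 shares 12.7% of its exon length with PLEKHJ1 on the other strand, whose own reads were 480 and 483. The 2 genes summed to 803 and 1076 reads, 1.41-fold higher, which is inside the 1.5-fold limit. The nearly equal PLEKHJ1 counts pull that sum toward no difference. It therefore cannot show the part of the shared exons in the SF3A2 ratio, which was not tested. PRPF3, a U4/U6 protein of the tri-snRNP, had 621 and 1141 reads, 1.94-fold higher (1.76 to 2.14). PRPF4, its binding partner, had 817 and 981 reads (0.34, 0.21 to 0.48). The scaffold of the catalytic centre, PRPF8, had 8602 and 8144 reads and a log2 ratio of -0.00 (-0.04 to 0.04), the closest of these to no difference. PRPF6, which joins U5 to U4/U6, had 2642 and 2637 (0.08, -0.00 to 0.15), and PRPF31, of U4/U6, had 361 and 281 (-0.28, -0.51 to -0.05). Genes of one complex thus differed in direction in both the SF3A complex and the tri-snRNP.

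Within the SF3B complex, which clamps the branch point, genes again differed in direction. SF3B3 had 8798 reads untreated and 5349 with DHA (-0.64, -0.69 to -0.59) and was past 1.5-fold. SF3B5, a small subunit, had 2053 and 1518 reads (-0.36, -0.45 to -0.26). On the other side, SF3B4 had 1769 and 2328 reads (0.47, 0.38 to 0.56) and SF3B2 5622 and 6449 (0.28, 0.22 to 0.33). SF3B1, the subunit that holds the branch point helix and is mutated in some leukaemias and eye melanomas, had 5706 and 5821 (0.11, 0.05 to 0.16). SF3B6 had 958 and 890 reads (-0.03, -0.16 to 0.11). The family's median was 0.04, and it was -0.02 when counts were scaled by the upper quartile.

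SRSF2 stood apart from every other member. It encodes an SR protein that binds exonic enhancers and is itself regulated through poison exons; the gene lies on chr17:76734115-76737374, minus strand (ENSG00000161547). It had 4233 reads untreated and 1689 with DHA, which is 2.37-fold lower (counting interval 2.24 to 2.51). Its level per gene length, in RPKM, went from 91.1 to 38.4, and its rank among the 94 genes from 7 to 26. SRSF2 shares 36.7% of its exon length, mostly with MFSD11 on the opposite strand. MFSD11 itself had 376 and 391 reads, and the 2 genes summed were 2.10-fold lower. Most reads of that sum are those of SRSF2, so it cannot show the part of the shared exons in the ratio, which was not tested. Whether counting used strand is not stated in the sources used here.

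Most other SRSF genes were lower by less. SRSF3, the smallest classical SR protein, had 6798 and 4474 reads (log2 ratio -0.52, -0.58 to -0.47). SRSF6 had 4587 and 3023 (-0.52, -0.59 to -0.46). SRSF10, which represses splicing when dephosphorylated, had 2680 and 1782 (-0.51, -0.60 to -0.42). These 3 genes lay just inside the 1.5-fold limit. SRSF7 (2175 and 1574 reads, -0.39), SRSF8 (1167 and 913, -0.28), SRSF5 (1929 and 1588, -0.20) and SRSF1 (2213 and 1909, -0.13) also had intervals below 0. SRSF4 (924 and 876 reads, 0.00), SRSF11 (2609 and 2570, 0.06) and SRSF9 (885 and 882, 0.07) had intervals that include 0. No SRSF gene was higher beyond its counting interval: 8 of 11 were below 0. Reads of the 12 SRSF genes went from 0.196% (0.193 to 0.198) to 0.147% (0.145 to 0.149) of their library. SRSF1 shares 60.7% of its exon length, mostly with AC015813.2, which had 0 reads in both libraries, and SRSF9 shares 46.2% with GATC, which had 376 and 622 reads on the opposite strand.

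CLK kinases, which phosphorylate these SR proteins, lay on the other side. CLK1 had 542 reads untreated and 765 with DHA (0.58, 0.41 to 0.74), and CLK3 had 334 and 459 (0.54, 0.33 to 0.75). CLK2 had 377 and 391 reads (0.13, -0.08 to 0.34) and CLK4 228 and 217 (0.01, -0.27 to 0.28), both with intervals that include 0. The family median was 0.33, and neither CLK1 nor CLK3 was past 1.5-fold. CLK4 was below 0 when counts were scaled by DESeq2's size factors or the upper quartile, or when a trend with length and GC was taken out. By level these kinases were low: CLK1 was at 6.81 and 10.2 RPKM, CLK2 at 6.67 and 7.31, CLK4 at 1.87 and 1.88 and CLK3 at 1.06 and 1.54. Length here is the exon union over all transcripts: 20443 bases for CLK3, 7924 for CLK4, 5170 for CLK1 and 3670 for CLK2. The order of these levels depends on that length, as CLK3 had more reads than CLK4.

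Gene-level counts sum over all forms of a message, and regulators have the most genes annotated with noncoding forms. GENCODE 29 lists a transcript marked for nonsense-mediated decay for all 12 SRSF genes. It does so for 29 of 42 regulators (69.0%) and for 11 of 33 core genes (33.3%). The share was 41.0% of all genes compared and 44.1% of the protein-coding ones. A retained-intron form is listed for 26 of the 42 regulators and 17 of the 33 core genes, a smaller gap. Whether the lower SRSF counts and the higher CLK1 and CLK3 counts are coding or noncoding forms was not tested, since the counts do not separate them. The classes also differ in build: the median exon length was 3044 bases for core genes and 5545 for regulators, with GC contents of 48.7% and 41.3%.

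Among the HNRNP genes, those with the most reads barely differed. HNRNPA1 had 11915 reads untreated and 12777 with DHA (0.18, 0.14 to 0.22), and HNRNPA2B1 had 14383 and 14670 (0.11, 0.07 to 0.14). HNRNPK, a poly(C)-binding protein, had 9437 and 8568 (-0.06, -0.10 to -0.02), and HNRNPU, a nuclear scaffold protein, had 11219 and 9496 (-0.16, -0.20 to -0.12). Per gene length, HNRNPA1 was at 152 RPKM untreated and 172 with DHA, HNRNPK at 119.9 and 115, and HNRNPA2B1 at 101 and 109. HNRNPU, at 32.4 and 28.9 RPKM, lay below HNRNPF (84.8 and 80.7), HNRNPC (75.3 and 57.3) and HNRNPA3 (60.1 and 44.6). SF3B5, at 192 and 150 RPKM, ranked first of the 94 untreated, and HNRNPA1 ranked first with DHA.

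**Figure D5:**
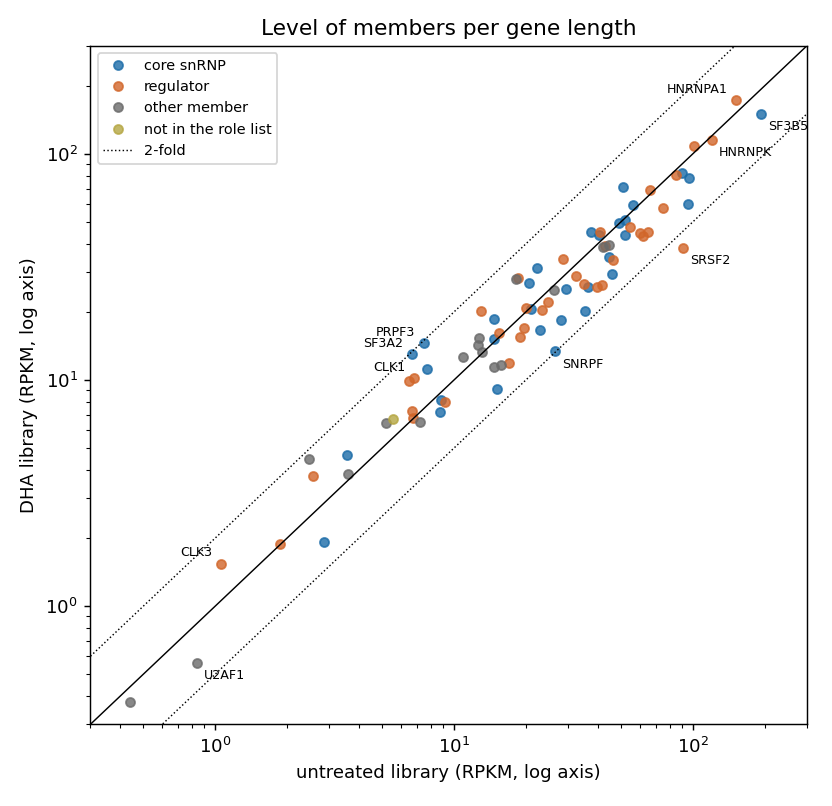
Level of each compared member per gene length in the untreated library (horizontal axis) and the DHA library (vertical axis), in RPKM on log axes; the solid line marks equal levels and dotted lines 2-fold. SRSF2 lies below the lower dotted line, at 91.1 and 38.4 RPKM, while SF3B5, HNRNPA1 and HNRNPK at the top lie close to the solid line.

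At 1.5-fold 3 of the 21 HNRNP genes compared were higher and 2 lower, beside 18.9% and 19.2% of all genes. These genes were 2 pairs and a single gene. HNRNPD (AUF1, which binds AU-rich messages; chr4:82352498-82374503) had 4493 and 2677 reads (-0.67, -0.74 to -0.60). Its paralogue HNRNPDL (chr4:82422564-82430408) had 3342 and 2061 (-0.62, -0.70 to -0.54), so both genes of this pair on chromosome 4 were lower. Of the G-run binding hnRNPs, HNRNPH3 had 1071 and 1586 reads (0.65, 0.53 to 0.76) and HNRNPH2 632 and 913 (0.61, 0.46 to 0.76). The more abundant relatives of that group differed less, with HNRNPH1 at 5976 and 6240 reads (0.14, 0.09 to 0.19) and HNRNPF at 4246 and 3828 (-0.07, -0.13 to -0.01). HNRNPUL2 had 541 and 778 reads (0.60, 0.44 to 0.76), while its paralogue HNRNPUL1 had 4686 and 3232 (-0.46, -0.52 to -0.39), the opposite direction. HNRNPUL2 shares 44.1% of its exon length with the readthrough row HNRNPUL2-BSCL2, which had 0 reads in both libraries.

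The other HNRNP genes lay between these. HNRNPA3 had 5585 and 3921 reads (-0.43, -0.49 to -0.37) and HNRNPC, which binds U tracts, 8471 and 6109 (-0.39, -0.44 to -0.35). HNRNPM (4728 and 3875 reads), HNRNPL (2603 and 2205), HNRNPLL (839 and 687) and HNRNPA0 (2626 and 2167) had log2 ratios from -0.21 to -0.16. HNRNPAB (2176 and 2171 reads, 0.08) had an interval that includes 0, and HNRNPR had 3826 and 4332 (0.26, 0.20 to 0.32). HNRNPA1L2 (54 and 75 reads) and HNRNPA1P48 (164 and 189), a row annotated as protein-coding that carries a pseudogene's name and was placed in neither class, are near relatives of HNRNPA1: 76.4% and 58.4% of their 31-base windows occur in other genes. Over 21 HNRNP genes the median was -0.07, with 12 below and 9 above 0.

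The remaining members act beside the snRNP core. U2AF2, which reads the pyrimidine tract before the 3′ splice site, had 2676 and 2327 reads (-0.12, -0.20 to -0.04). Its partner U2AF1, which reads the AG, had 143 and 91 (-0.57, -0.97 to -0.18), at 0.836 and 0.562 RPKM the second lowest level among the members compared in the untreated library. That level is uncertain: 96.5% of its 31-base windows also occur in other genes, nearly all in its near-identical copy U2AF1L5 (38 and 16 reads). The 2 rows together had 181 and 107 reads, a log2 ratio of -0.68 (-1.04 to -0.33).

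Of the other PRPF genes, PRPF18, a second-step factor, had 71 reads untreated and 121 with DHA (0.84, 0.41 to 1.29) and passed 1.5-fold; it shares 48.5% of its exon length, mostly with AL157392.5, which had 0 reads in both libraries. PRPF39 (394 and 462 reads, 0.31) and PRPF38B (972 and 1070, 0.22) were higher with intervals above 0. PRPF19, a ubiquitin ligase that leads its own spliceosomal complex, had 1887 and 1574 (-0.18, -0.28 to -0.09). PRPF4B (871 and 748 reads), PRPF38A (1135 and 1093) and PRPF40B (64 and 52) had intervals that include 0. The 8 genes split evenly, 4 above and 4 below 0.

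LSM proteins outside the U6 ring were likewise mixed. LSM14B, a P-body protein, had 945 and 1375 reads (0.62, 0.50 to 0.74) and passed 1.5-fold, while its paralogue LSM14A had 924 and 991 (0.18, 0.05 to 0.31). LSM1, of the cytoplasmic decay ring, had 331 and 376 reads (0.26, 0.05 to 0.48). LSM10 (602 and 545 reads) and LSM11 (366 and 368), of the U7 snRNP that processes histone messages, had intervals that include 0. LSM12 had 679 and 476 reads (-0.43, -0.61 to -0.26), and its copy LSM12P1 had 222 and 204.

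A wider list of 155 other splicing gene rows, drawn up by function, showed where larger differences lay. Of 151 compared, 2 were over 2-fold higher and 3 over 2-fold lower, beside the 6.72% and 10.3% of all genes, and the median was 0.05. The 3 lower genes are cell-type regulators: ESRP1 (120 and 19 reads, -2.55) and ESRP2 (396 and 106, -1.82), the epithelial splicing regulators, and MBNL3 (249 and 49, -2.25). The summed level of the 8 epithelial markers was 3422 and 1422 CPM, most of it from KRT8 (1939 and 812) and KRT18 (799.8 and 342); CLDN4 (99.3 and 111) and CEACAM6 (0.195 and 0.823) went the other way. The part of these markers in the ratios of ESRP1 and ESRP2 was not tested. The 2 higher genes were KHDRBS3, an RNA-binding regulator (177 and 498 reads, 1.57), and SMN1, which loads Sm rings onto snRNAs (182 and 480, 1.48). SMN1 cannot be told from its near-identical copy SMN2 (92 and 84 reads) by short reads with confidence, and the pair summed to 274 and 564, still 2.17-fold higher. The other 16 snRNP assembly genes were neither higher nor lower at 2-fold, and that group's median was -0.04.

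The late-acting factors had the highest median of that list. The 31 listed genes of the PRPF19 complex, helicases and step factors had a median log2 ratio of 0.31, with 23 above 0. PRPF19 itself (-0.18) and the second-step factor PRPF18 (0.84) are members and lie outside this group. The helicases SNRNP200 (-0.22), DDX23 (0.09) and DDX46 (0.04) were counted with the other snRNP genes. At 1.5-fold 7 of the 31 were higher, a share near the 18.9% of all genes, and 0 were lower, beside 19.2%. Named after their values were seen, these are SYF2 (179 and 307 reads, 0.86), DHX16 (950 and 1521, 0.76), RBMX2 (162 and 253, 0.72), CRNKL1 (252 and 391, 0.71), SLU7 (681 and 1032, 0.68), CWC25 (339 and 512, 0.67) and CDC5L (772 and 1107, 0.60). The 26 other snRNP genes (U1, U2, U5, tri-snRNP and minor spliceosome) had a median of -0.02, with 3 higher at 1.5-fold, beside 18.9% of all genes: SART1 (774 and 1388, 0.92), CD2BP2 (594 and 953, 0.76) and SNRNP27 (260 and 391, 0.67). The 24 genes of early recognition and the exon junction had a median of -0.02, and the 53 other splicing regulators compared had 0.01.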

How the data were processed

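Whole-number read counts per gene were deposited by the authors for both libraries, with no normalization, per the file headers. Library preparation used a TruSeq kit on total RNA, per the labels' protocols; the aligner, the counting tool and its use of strand and of reads matching several places are not stated in the sources used here. All 58735 rows had the position and name of GENCODE 29 on GRCh38, and the deposited gene length equalled its exon union in every row.

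Counts were scaled by TMM (edgeR 4.0.16, R 4.3.3; factors 0.996 and 1.00) over the whole table. Ratios were taken with 0.5 reads added. Intervals are exact Clopper-Pearson 95% intervals of the DHA share of a gene's reads, and cover counting error only. A gene was compared when either library held 50 reads or more, and called at 2-fold (also 1.5-fold) with an interval excluding 1; no test was run. RPKM uses the deposited gene length and scaled totals. The script was tested on simulated data.

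Members, classes and lists were chosen with earlier results of these data known. Named are members past 2-fold, all SRSF and CLK genes, and in each family the 4 with the largest absolute log2 ratio and the most abundant; other listed genes only past 2-fold. All further genes were named after their values were seen. Some genes that the rule takes are not reported here one by one, in the text or the plot of ratios, and stay in the counts and medians. Alternatives were other scalings, read minimums, pseudocounts, intervals and folds, the leaving out of overlapping or near-identical genes, other classes and, added after seeing the data, the removal of a length and GC trend, the leaving out of members by shared 31-base windows and the addition of copies.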

Additional observations from a re-analysis of the deposited data

How the results depend on the processing

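No paired analysis was possible because each group is 1 library, and no library could be left out. SRSF2 remained at least 2-fold lower under every alternative run. The count of members at least 2-fold lower was 2 with DESeq2 (1.42.0) size factors, where SNRPF reached -1.03, and 2 with the upper quartile, where SNRPF reached -1.05. It was also 2 with a minimum of 10 reads or of 1 read, which let U2AF1L5 in. The count higher was 1 with the length and GC trend removed, where SF3A2 reached 1.03. At 1.5-fold 7 of 85 members were higher and 9 lower, and of 151 other splicing genes 20 were higher and 6 lower. Of all genes compared, 18.9% were higher and 19.2% lower at that limit. The difference of medians, regulators minus core, was -0.15 without the members that have over 10% of their 31-base windows in another gene, -0.03 at a minimum of 500 reads and 0.12 without tri-snRNP genes in the core, so its sign is not fixed. The median of other splicing genes was -0.01 with the upper quartile. Scalings moved the median of all genes by 0.01 to -0.07. Of the named members' values under alternatives, 553 kept their call and size, 13 moved, 3 passed 2-fold, and 0 reversed a call. Only SRSF2 had a 2-fold call that could reverse, so that 0 says nothing of the other genes. A change of sign inside the counting interval was not counted as a move. The CLK4 values below 0, under DESeq2 size factors, the upper quartile and the removed trend, are thus among the 553. A changed read minimum or interval level leaves the log2 ratio itself as it was. Values under those settings therefore kept their size by construction, and the 553 include them. Depth limits PRPF18, PRPF40B, HNRNPA1L2, LSM6 and U2AF1, whose intervals are wide.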
